A study of Mus musculus with 4 samples.

Results

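The angiopoietin and Tie receptor genes were examined by their symbols in the deposited feature table. They were the receptors Tek and Tie1, the ligands Angpt1 and Angpt2, and the angiopoietin-like genes Angptl2 and Angptl4, so 6 of 32290 features. Each symbol occurred once, and all 6 genes had UMIs in kept cells of every library, where UMIs (unique molecular identifiers) count single captured transcripts. The study sequenced single cells from adipose tissue of mice with or without Tert in the Tie2 lineage. All mice were male, 7 months old and had been on a high-fat diet for 5 months, and all carried Tie2e-cre and the mTmG reporter. WT mice were TERT+/+ and KO mice TERTfl/fl. There were 4 libraries, WT SC, KO SC, WT IP and KO IP, where SC is subcutaneous and IP visceral intraperitoneal fat, with 1 library per group. How many mice were pooled for a library is not given in the sources used here, and the labels mention cells in some fields and nuclei in others.

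Tie2, the product of Tek, is a receptor tyrosine kinase best known from blood and lymphatic vessels, and Tie1 is its relative that modulates it without a classical angiopoietin ligand. Angiopoietin 1 activates Tie2 and is made mainly by cells around vessels, while angiopoietin 2, stored and released by endothelium, can activate or block Tie2. The angiopoietin-like proteins resemble the angiopoietins in structure but do not bind Tie2. ANGPTL4 inhibits lipoprotein lipase, and ANGPTL2 is a secreted protein of fat linked to inflammation. Tie2e-cre uses regulatory sequence of Tek to drive the recombinase, which turns on GFP from mTmG where it acts, and Tie2-driven recombinases are known to act in blood cells as well as in endothelium.

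The stretch just before the RefSeq start of Tek is shown because regulatory sequence of this gene drives the recombinase, with that of Tie1 beside it because the receptors had different cell distributions here. Both are 250 bases, 5′ to 3′ on the gene's strand, from the RefSeq promoter table of GRCm38.p6. Tek is chr4:94739039-94739288 on the plus strand and Tie1 is chr4:118489850-118490099 on the minus strand. The annotations differ for Tie1, whose GENCODE gene begins further out, so that 212 bases of its stretch lie inside that gene, against 0 for Tek. Capitals mark GGAA and its reverse complement TTCC, the core that ETS factors bind.
Tek: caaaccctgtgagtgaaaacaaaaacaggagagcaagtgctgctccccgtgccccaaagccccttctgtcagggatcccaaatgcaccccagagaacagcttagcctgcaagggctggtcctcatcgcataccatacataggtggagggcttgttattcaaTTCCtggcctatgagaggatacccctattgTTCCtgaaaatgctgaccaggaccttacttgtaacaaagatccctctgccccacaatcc
Tie1: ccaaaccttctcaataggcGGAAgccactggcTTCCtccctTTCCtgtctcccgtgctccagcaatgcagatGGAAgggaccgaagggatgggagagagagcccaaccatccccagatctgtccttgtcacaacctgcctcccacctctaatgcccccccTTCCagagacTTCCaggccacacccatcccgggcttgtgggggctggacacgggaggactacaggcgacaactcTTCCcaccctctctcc
The Tek stretch held 2 matches and the Tie1 stretch 7. Of 32851 such stretches, 93.4% held at least 1 match, with a median of 3, and 3.82% held 7 or more. A match is a description of letters, not of binding.

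In the GENCODE vM21 annotation of GRCm38, all 6 were protein-coding genes. Tek (ENSMUSG00000006386) lay on chromosome 4 from 94739289 to 94874976 and Tie1 (ENSMUSG00000033191) on chromosome 4 from 118471191 to 118490061. Angpt1 (ENSMUSG00000022309) lay on chromosome 15 from 42424723 to 42676977, and its start overlapped Gm17473 on the opposite strand. Angpt2 (ENSMUSG00000031465) lay on chromosome 8 from 18690263 to 18741562, wholly inside Mcph1 on the opposite strand. Angptl2 (ENSMUSG00000004105), on chromosome 2 from 33216069 to 33247717, lay inside Ralgps1 on the opposite strand. Angptl4 (ENSMUSG00000002289), on chromosome 17 from 33773750 to 33781830, overlapped no other gene, like Tek and Tie1. Whether counting used strand is not given in the sources used here.

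Of 4927 barcodes, 4113 passed the filters, 518 to 1955 per library, with median depths of 6706 to 13047 UMIs. A cell took the class whose markers it showed, and 3760 cells were classed. They included 770 adipose stromal cells (ASC), 1850 T cells, 789 B cells and 24 endothelial cells, of which 15 were from WT IP. All 8 markers of the ASC list and all 12 of the endothelial list were seen in at least 10% of the cells of their class. Since a cell entered a class by showing at least 3 of these markers, this is no independent check. The leading 10 genes of ASC by fold held no marker of any list, and those of the endothelial class included Cldn5 and Tie1. Tert, the targeted gene, had 2 to 9 UMIs per library over all barcodes, with 2 and 9 in the KO libraries, so it could not check the genotypes at this depth.

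The KO SC and WT IP libraries shared 93 barcodes, while other pairs of libraries shared 0 or 1. In KO SC these barcodes had a median of 601 UMIs, and 91 of them were below 2000 UMIs. In WT IP the same barcodes had a median of 35392 UMIs and at least 27629. The KO SC count was a median of 1.71% of the WT IP count. They made up 75 of the 200 ASC of KO SC but held 2.74% of those cells' UMIs, and 70 of them were classed as ASC in both libraries. With these left out, the median depth of KO SC ASC was 14659 UMIs instead of 5546. Why the barcodes recur was not tested. Sums of UMIs in KO SC hardly depended on them, but counts and shares of cells did, so KO SC shares are given with and without them. Sums in WT IP depended on them more. There they held 1751 Angptl4, 328 Angptl2, 191 Tek and 58 Angpt1 UMIs, where all kept cells held 3341, 699, 502 and 257. Comparisons with WT IP that leave out the shared barcodes thus leave out these deep cells.

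Tek was counted mainly in ASC, and not mainly in endothelium. Of 1511 Tek UMIs in classed cells, 1438 (95.2%, 95% interval 94.0 to 96.2) were in ASC and 46 in endothelial cells. Intervals here are exact and cover counting error only. Levels are given as CPM, the gene's UMIs scaled to 1000000 UMIs of the class. ASC had 104 CPM (98.9 to 110) and the far fewer endothelial cells 127 CPM (93.1 to 170), so the ranges of these 2 classes overlapped. Of the 24 endothelial cells, 16 carried at least 3 lymphatic markers and had 91.5 CPM (59.8 to 134). The other 8 had 257 CPM (157 to 398), above the ASC range. At least 1 Tek UMI was seen in 49.7% of ASC and 66.7% of endothelial cells, at median depths of 17766 and 10891 UMIs. T cells, which should lack the gene, had 1.29 CPM and a UMI in 0.703% of cells, at a median of 8056 UMIs. Macrophages, monocytes and dendritic cells, neutrophils, NK cells and red cells had 0 Tek UMIs, and B, mural and mesothelial cells had 1 to 4.

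ASC had Tek without comparable levels of the other endothelial genes. Tie1 had 3 UMIs in ASC, all from 1 WT IP cell, against 113 of its 116 classed UMIs (97.4%, 92.6 to 99.5) in endothelial cells. The endothelial class thus had 113 Tie1 and 46 Tek UMIs, and ASC had 3 and 1438. Cdh5 (VE-cadherin), Cldn5 (claudin 5), Egfl7, Esam, Emcn, Kdr, Vwf, Robo4 and Mmrn2 were in ASC at 0.0599% to 0.587% of their endothelial level, Flt1 at 1.93%, Pecam1 at 3.80% and Eng, which stromal cells also express, at 11.5%. For Tek the figure was 82.0%, with an endothelial class of mostly lymphatic cells. These 12 markers also set the classes, so their low levels in ASC were partly fixed by the class rule. Tek and Tie1 were in no marker list. Summed over the 12 endothelial markers, ASC of WT SC had 41.6 CPM in cells with a Tek UMI and 93.6 CPM in cells without. The same sums were 39.1 and 22.7 CPM for KO SC, 116 and 95.2 CPM for WT IP, and 92.2 and 92.9 CPM for KO IP. The order of these sums differed between libraries, and the endothelial class itself stood at 4203 to 10048 CPM.

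**Figure D1:**
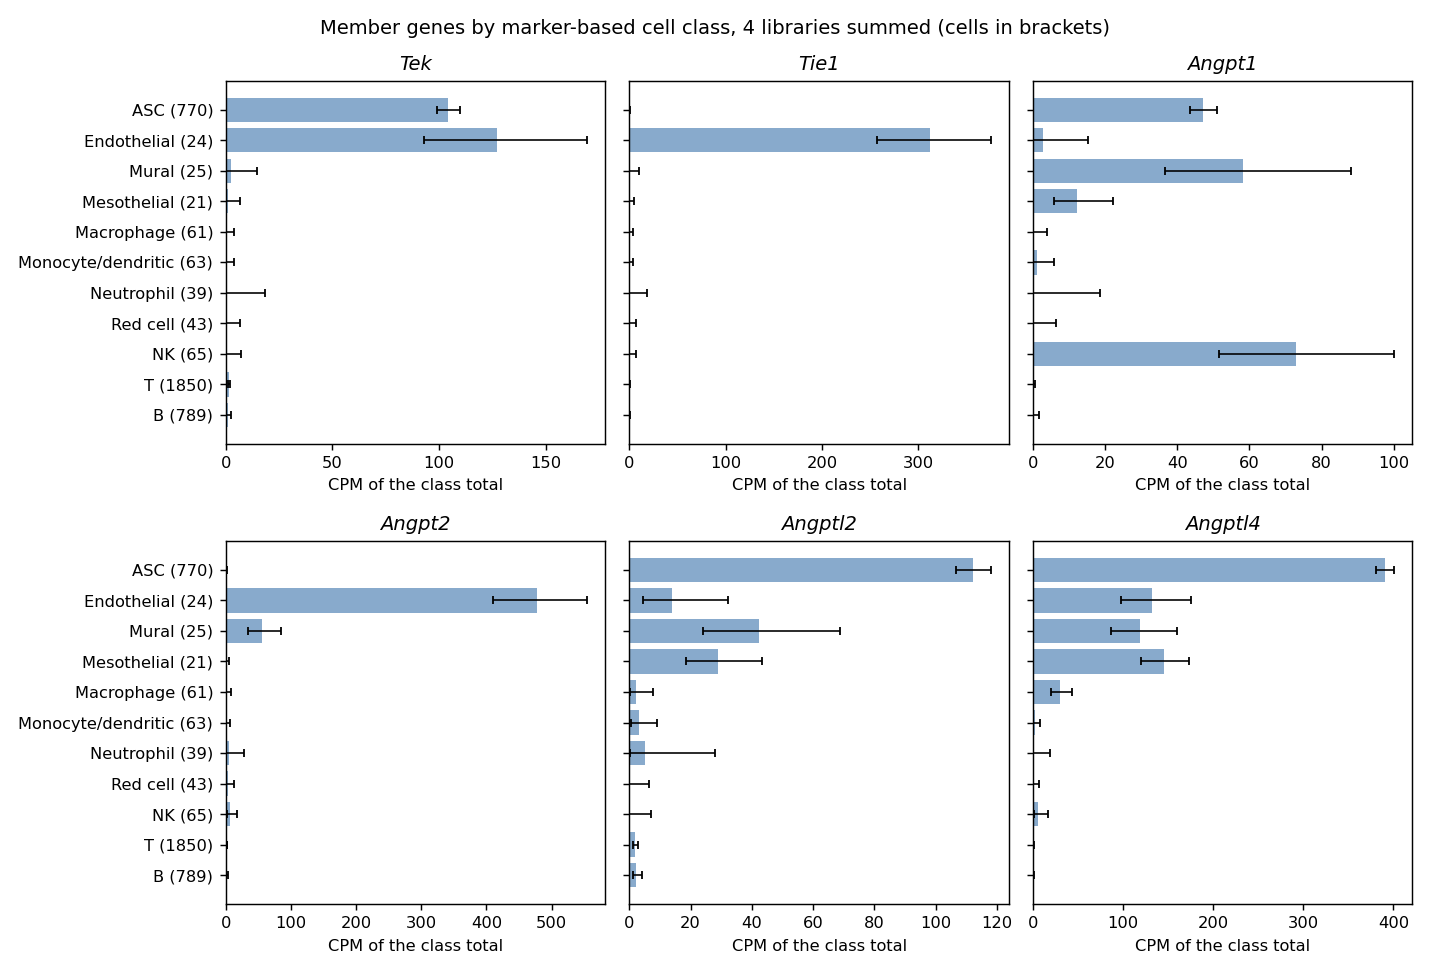
Level of each of the 6 genes (CPM of the class total, x axis, linear from 0) in the 11 marker-based classes with at least 10 cells, summed over the 4 libraries. Bars are levels, whiskers exact 95% Poisson intervals and brackets the cells per class. Tek stands at 104 CPM in ASC and 127 CPM in endothelial cells, Tie1 is high in endothelial cells alone, and Angptl2 and Angptl4 are highest in ASC.

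In endothelial cells both receptors were found together. Of 24 cells, 20 had a UMI of Tek or Tie1 and 15 had both. In WT, Tie1 had 17 UMIs in the 2 cells from SC and 88 in the 15 from IP, and Tek had 12 and 29. In KO, Tie1 had 1 UMI in the 3 cells from SC and 7 in the 4 from IP, and Tek had 2 and 3. These counts are too few to compare genotypes or depots. Of the 24 cells, 16 carried at least 3 lymphatic markers, and the other 8 did not. Tek was 91.5 CPM (59.8 to 134) in the lymphatic cells and 257 CPM (157 to 398) in the others, and Tie1 was 292 and 386 CPM. A barcode of KO SC in this class was among the shared ones.

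The level of Tek in ASC was higher in SC than in IP. In SC it was 182 CPM (163 to 204) for WT and 158 (139 to 177) for KO, and in IP 73.8 (67.1 to 81.1) for WT and 92.2 (83.5 to 102) for KO. Both SC libraries stood above both IP libraries, with no overlap of intervals. IP against SC gave a log2 ratio of -1.31 (-1.52 to -1.09) in WT and -0.77 in KO. Leaving out the shared barcodes, these were -1.15 (-1.39 to -0.91) and -0.79 (-1.02 to -0.56). A Tek UMI was seen in 58.7% of the ASC of WT SC, 40.0% of KO SC (60.8% without the shared barcodes) and 52.1% of each IP library. With every cell thinned to 2000 UMIs, leaving 80 WT and 116 KO cells of SC and 243 WT and 188 KO cells of IP, the mean shares over all possible draws were 23.7% and 24.1% in SC and 12.6% and 15.9% in IP. The thinned sums were 26.2 to 37.7 Tek UMIs per library.

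ASC hold cells with markers of early progenitors (Pi16, Dpp4, Sema3c, Cd55, Anxa3, Emilin2) and cells with markers of more committed, matrix-rich cells (Col15a1, Col4a1, Col4a2, Sparcl1, Cxcl14, Hsd11b1). Each ASC was called early or late by the list of which it showed more. Tek was higher in the early cells, though late cells had it too. In SC, early ASC had 243 CPM for WT and 199 for KO, against 51.8 and 52.7 CPM in late ASC. In IP, early ASC had 144 CPM for WT and 133 for KO, against 46.3 and 58.0 CPM in late ASC. In each library the early level was above the late one, with no overlap of intervals, while the late levels of the 4 libraries had overlapping intervals.

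The log2 ratio of early to late Tek was 2.21 (1.67 to 2.85) for WT and 1.89 (1.33 to 2.56) for KO in SC, and 1.63 (1.34 to 1.93) for WT and 1.20 (0.87 to 1.54) for KO in IP. Without the shared barcodes it was 1.89 for KO SC and 1.79 for WT IP. Tek was at least 2-fold higher in early cells in all 4 libraries, as were 125 of 7416 genes compared in each (1.69%). By the smallest of its 4 ratios it ranked 94. That ratio was the one of KO IP, where alternative runs gave 0.33 to 1.22, so the 2-fold mark was not held in each run. In the other libraries they gave 1.29 to 2.43. As a mean over draws of 2000 UMIs per cell, the KO IP ratio was 0.89 (-0.20 to 2.07) and the others 1.71 to 2.13, from few UMIs. Counting cells, a Tek UMI was seen in 65.8% to 71.0% of early ASC per library and in 15.7% to 45.0% of late ASC, and in thinned cells in 21.4% to 31.4% and 7.75% to 11.9%. The 15.7% was KO SC, where it was 36.4% of late and 70.0% of early ASC without the shared barcodes.

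The depots differed in how many of their ASC were early. Early cells held 66.9% of the ASC UMIs of WT and 70.0% of KO in SC, but 25.4% and 38.8% in IP. Within early ASC, the log2 ratio of Tek in IP against SC was -0.76 (-1.02 to -0.50) in WT and -0.57 (-0.84 to -0.31) in KO. Within late ASC it was -0.19 (-0.75 to 0.47) and 0.12 (-0.49 to 0.81). The fall of Tek in IP was thus seen in early cells, at a smaller size than over all ASC, and was not detectable in late cells.

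**Figure D2:**
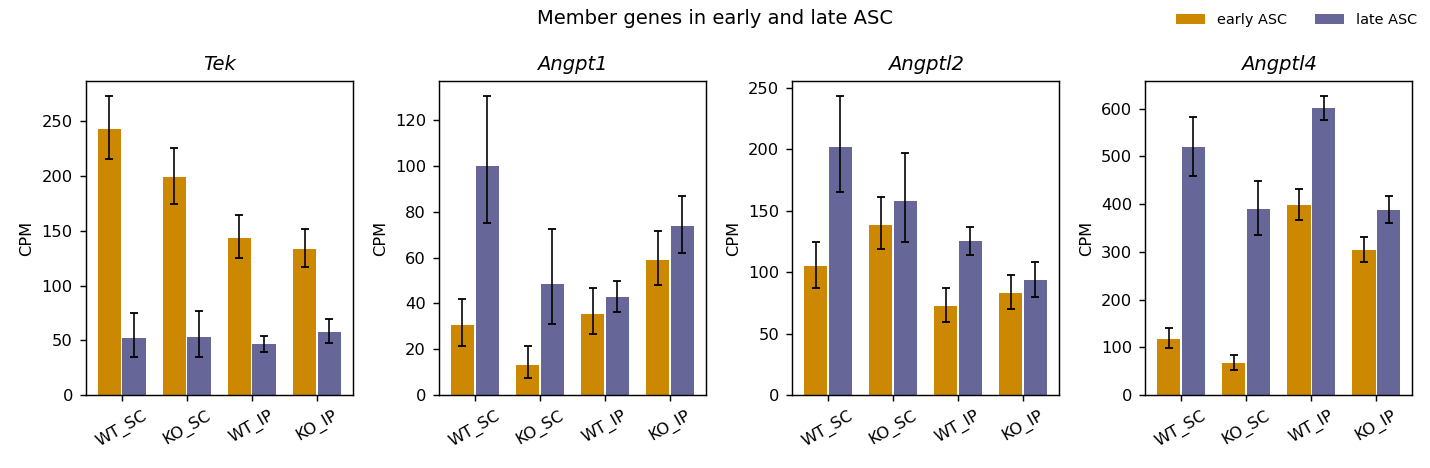
CPM (y axis, linear from 0) of Tek, Angpt1, Angptl2 and Angptl4 in early (orange) and late (blue) ASC of the 4 libraries, with exact 95% Poisson intervals. Tek is higher in early ASC of every library, and Angptl4 is higher in late ASC, most clearly in SC.

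Angpt1, the activating ligand of Tie2, was found in ASC, mural cells and NK cells. ASC held 651 of its 728 classed UMIs (89.4%, 87.0 to 91.6), at 47.2 CPM (43.6 to 51.0). Mural cells, the pericytes and smooth muscle cells of vessels, had 22 UMIs in 12 of 25 cells, at 58.2 CPM (36.5 to 88.2). NK cells had 38 UMIs in 15 of 65 cells, at 73.0 CPM (51.7 to 100), with 14 of the UMIs from 1 cell. NK cells with a UMI came from each library, 2 of 16 and 2 of 8 cells in the SC libraries of WT and KO, and 6 of 31 and 5 of 10 in those of IP. T cells had 3 Angpt1 UMIs in 1850 cells (0.162% of cells) and endothelial cells had 1. The mural interval overlapped those of ASC and NK cells, and the NK interval began just above that of ASC.

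In ASC of SC, Angpt1 was 52.0 CPM (41.9 to 63.7) for WT and 23.0 (16.4 to 31.3) for KO, and in ASC of IP 38.2 (33.4 to 43.5) for WT and 66.7 (59.3 to 74.7) for KO. KO SC was the lowest library and KO IP the highest. A UMI was seen in 26.1% of the WT SC cells, 9.50% of KO SC (14.4% without the shared barcodes), and 35.1% and 37.1% of the IP cells of WT and KO. Among thinned cells the mean share was 8.26% of WT and 3.09% of KO cells from SC, and 8.63% of WT and 12.1% of KO cells from IP. The single cell with the most Angpt1 held 4.91% to 16.3% of the ASC UMIs of its library. Early and late ASC of SC had 30.4 and 100 CPM for WT and 13.1 and 48.6 CPM for KO. In IP they had 35.6 and 42.7 CPM for WT and 58.9 and 73.6 CPM for KO. Late cells had the higher value in each library, but in IP the intervals of early and late overlapped.

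Most Angpt2 UMIs came from a few lymphatic endothelial cells. Of its 256 classed UMIs, 173 (67.6%, 61.5 to 73.3) were in endothelial cells, and all 173 were in the cells with lymphatic markers. They came from 9 of 16 such cells, and 1 WT IP cell held 115. That cell and another, with 126 Angpt2 UMIs together, were among the shared barcodes. Without the shared barcodes in both libraries the endothelial share of Angpt2 UMIs was 36.3%. The 8 other endothelial cells had 0 Angpt2 UMIs, which allows up to 47.5 CPM by the exact interval. Mural cells had 21 UMIs in 12 of 25 cells, 55.6 CPM (34.4 to 85.0), with 1 to 3 UMIs per positive cell. ASC had 18 UMIs in 770 cells, 1.30 CPM, with an interval (0.773 to 2.06) that held the 1.60 CPM of T cells. No expression in ASC was read from so few UMIs, and whether they are background was not tested. Late ASC of KO SC held 6 of the 18, in 4 cells, at 12.2 CPM (4.46 to 26.5). In KO IP, T cells had 7 Angpt2 UMIs, 6.12 CPM and a UMI in 5.51% of cells, against 2 UMIs and 0.452 CPM in ASC, while the other libraries had 0 to 1.75 CPM in T cells.

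Angptl2 was concentrated in ASC, with 1550 of 1643 classed UMIs (94.3%, 93.1 to 95.4). ASC had 112 CPM (107 to 118), mural cells 42.4 (24.2 to 68.8), mesothelial cells 29.1 (18.6 to 43.3) and endothelial cells 13.8 (4.49 to 32.2). T cells had 1.91 CPM, with a UMI in 1.51% of cells, and NK cells 0 UMIs. In ASC of SC it was 141 CPM (124 to 160) for WT and 145 (128 to 164) for KO, and in ASC of IP 111 (103 to 120) for WT and 89.5 (80.9 to 98.8) for KO. The SC libraries overlapped each other and stood above those of IP. A UMI was seen in 66.3% and 48.5% of SC cells of WT and KO, in 66.8% and 56.8% of IP cells, and in 72.0% of KO SC cells without the shared barcodes. Early and late ASC of WT had 105 and 202 CPM in SC and 72.5 and 125 CPM in IP. Those of KO had 139 and 158 CPM in SC and 83.3 and 93.5 CPM in IP. Late cells were thus higher by more than counting error in WT, and not detectably in KO.

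Angptl4 was counted in ASC and, at lower levels, in mesothelial, endothelial and mural cells and in macrophages. ASC held 5389 of 5663 classed UMIs (95.2%, 94.6 to 95.7), at 391 CPM (380 to 401). Mesothelial cells had 145 CPM (120 to 174), endothelial cells 133 (97.8 to 176), mural cells 119 (86.9 to 159) and macrophages 30.4 (20.4 to 43.7). Of the 48 endothelial UMIs, 47 were in the cells with lymphatic markers. T cells had 1.17 CPM, with a UMI in 0.973% of cells, and B cells 0 UMIs. The mesothelial, endothelial and mural levels did not differ beyond their intervals, and macrophages, a class with 0 Tek UMIs, stood below them.

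In ASC of SC, Angptl4 was 250 CPM (228 to 275) for WT and 163 (145 to 183) for KO, and in ASC of IP 533 (515 to 553) for WT and 347 (330 to 364) for KO. No interval overlapped another, IP was above SC in both genotypes, and KO was below WT in both depots. A UMI was seen in 71.7% of the WT SC cells, 42.5% of KO SC (54.4% without the shared barcodes), and 84.5% and 78.4% of the IP cells of WT and KO. In thinned cells the mean share was 28.4% and 21.2% of SC cells and 53.0% and 42.2% of IP cells. A single WT SC cell held 82 of 443 UMIs, or 18.5%, and another held 76. Early ASC of WT had 118 CPM in SC and 398 in IP, and those of KO 67.4 and 304 CPM. Late ASC of WT had 518 CPM in SC and 601 in IP, and those of KO 389 and 387 CPM. The depots stood far apart in early cells and close together in late cells. The late value of WT SC includes the cells with 82 and 76 UMIs.

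**Figure D3:**
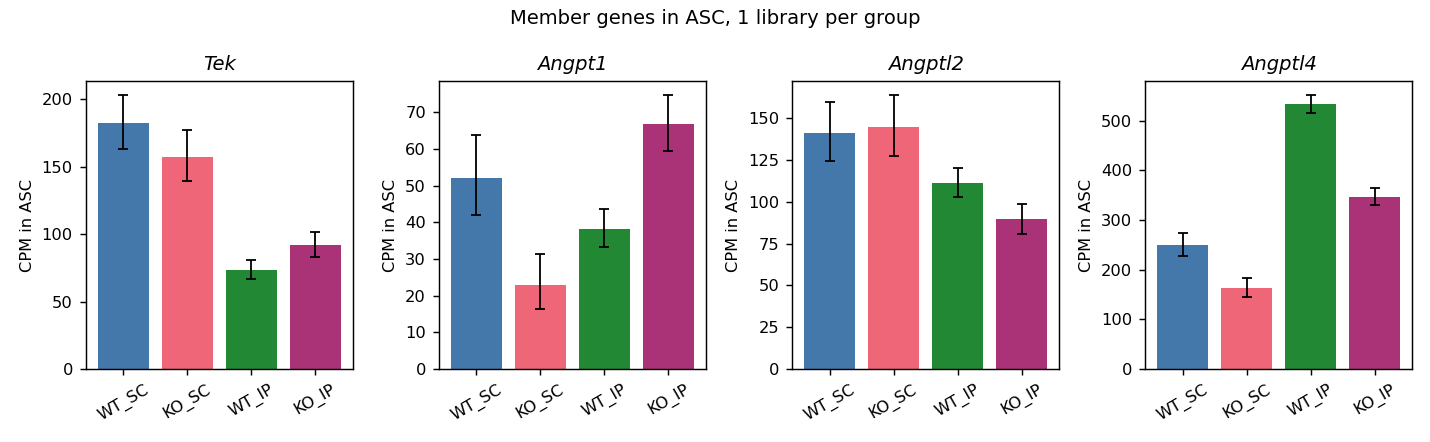
CPM in ASC (y axis, linear from 0) of Tek, Angpt1, Angptl2 and Angptl4 in the 4 libraries, 1 per group, with exact 95% Poisson intervals. Tek is higher in both SC libraries, Angptl4 is lower in KO in both depots, and Angpt1 is lowest in KO SC and highest in KO IP.

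KO was compared with WT within each depot. With 1 library per group there is no test, and a difference between mice cannot be told apart from genotype. A ratio was read where both libraries together had at least 20 UMIs, which held for Tek, Angpt1, Angptl2 and Angptl4 in ASC. In SC, 1 of these 4 genes was at or beyond 2-fold (Angpt1), and 5.47% of all genes compared were. In IP, 0 of 4 were, against 5.88% of all genes. The median log2 ratio of all genes was -0.00 in SC and 0.05 in IP.

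Angptl4 was lower in KO in both depots, with log2 ratios of -0.61 (-0.84 to -0.40) in SC and -0.62 (-0.71 to -0.53) in IP. It was below 0 within early ASC, at -0.81 and -0.39, and within late ASC, at -0.41 and -0.63. In WT SC, 1 late cell held 82 and another 76 of the 443 Angptl4 UMIs, beside 284 UMIs in KO SC. No early cell of WT SC held more than 18. The SC ratios over all ASC and within late ASC were not repeated without these deep-counted cells, so they may rest on them. Without the shared barcodes the SC value was -0.67 (-0.89 to -0.45) and the IP value -0.41 (-0.51 to -0.30). With each cell given the same weight the SC value was -0.053. That run kept the shared barcodes, 75 of the 200 ASC of KO SC, and was not repeated without them.

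Angpt1 differed between KO and WT in opposite directions in the depots. Its log2 ratio was -1.17 (-1.75 to -0.63) in SC and 0.80 (0.55 to 1.06) in IP. Within early ASC the ratios were -1.19 and 0.72, and within late ASC -1.02 and 0.79. The early SC ratio compares 16 UMIs in KO with 36 in WT, and 1 WT cell held 15 of the 36. It was not repeated without that cell. Leaving out the shared barcodes, the SC value was -1.16 and the IP value 0.34 (0.07 to 0.63). The difference between the depots was not tested. In KO SC, markers of T and B cells summed to 32.2 CPM in ASC, against 6.78 in WT SC, and the part of this in the result was not tested.

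Tek had a log2 ratio of -0.21 (-0.45 to 0.03) in SC and 0.32 (0.12 to 0.52) in IP. The SC value was -0.29 (-0.54 to -0.04) within early ASC and 0.02 (-0.81 to 0.85) within late ASC. The IP value was -0.11 within early ASC and 0.33 (-0.03 to 0.68) within late ASC, so it was not seen in the early cells where Tek was highest. Without the shared barcodes it was 0.17 (-0.06 to 0.40). Angptl2 had 0.04 (-0.22 to 0.30) in SC and -0.31 (-0.50 to -0.13) in IP, and the IP value turned to 0.20 (-0.17 to 0.57) within early ASC.

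IP was compared with SC within each genotype, where 16.0% of all genes in WT and 16.7% in KO were at or beyond 2-fold. In WT, Angptl4 (1.09, 0.95 to 1.24) and Tek (-1.31) were, so 2 of 4 genes. In KO, Angptl4 (1.08, 0.90 to 1.27) and Angpt1 (1.52, 1.06 to 2.05) were, again 2 of 4. The comparisons share no library with each other, but each shares libraries with those of genotype. For Angptl4 the log2 ratio within early ASC was 1.75 in WT and 2.16 in KO, and within late ASC 0.21 and -0.01. Angpt1 in WT was -0.45 (-0.80 to -0.08), but 0.22 (-0.41 to 0.88) within early ASC and 0.01 (-0.36 to 0.40) without the shared barcodes, so no direction is read. Angptl4 in WT was 0.88 (0.72 to 1.04) without the shared barcodes, under 2-fold. Angptl2 was lower in IP, at -0.35 (-0.56 to -0.13) in WT and -0.70 (-0.93 to -0.46) in KO, and stayed below 0 in every alternative run, from -0.79 to -0.27.

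**Figure D4:**
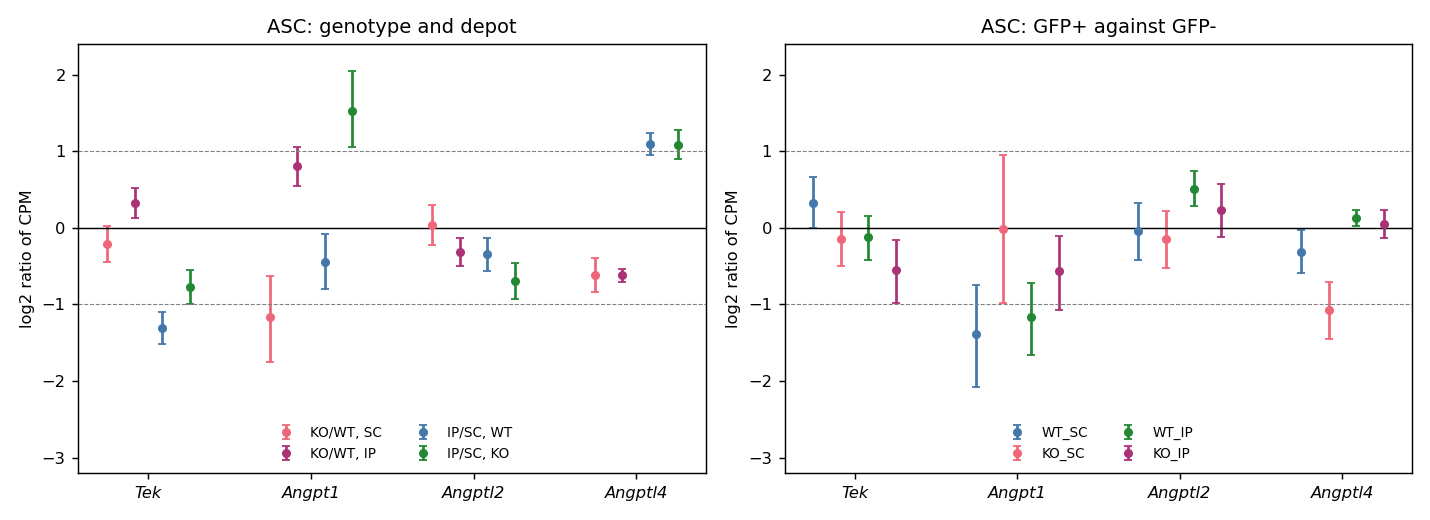
Log2 ratios of CPM in ASC (y axis) with exact conditional binomial 95% intervals, for KO against WT and IP against SC (left) and for GFP+ against GFP- cells in each library (right). Dashed lines mark 2-fold. Angptl4 lies near -0.6 for KO against WT in both depots, and Angpt1 lies on opposite sides of 0 for the 2 depots.

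ASC with at least 1 UMI of the GFP coding sequence (GFP+) were set against those with none (GFP-) to see whether the members, Tek first, tracked the recombination mark. GFP+ cells were 45.7% of the ASC of WT SC, 36.5% of KO SC (52.8% without the shared barcodes), and 32.8% and 18.3% of the IP cells of WT and KO. T cells had 66.9% and 40.5% in SC and 70.6% and 34.6% in IP for WT and KO, above ASC of the same library apart from KO SC without the shared barcodes. The T cell share covers both recombined cells and free GFP RNA, and these were not told apart. GFP+ ASC were deeper than GFP- ASC, apart from KO SC without the shared barcodes. Their median depths were 11763 and 781 UMIs in KO SC (14452 and 14659 without the shared barcodes), and 25580 to 28041 against 18280 to 20540 UMIs in the others.

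Tek was not clearly higher in GFP+ ASC across the libraries. In SC it was 201 CPM in GFP+ and 160 in GFP- ASC of WT, a log2 ratio of 0.33 (0.00 to 0.66), and 150 and 165 CPM in KO, a ratio of -0.14 (-0.49 to 0.21). In IP it was 70.1 and 76.5 CPM in WT, a ratio of -0.12 (-0.41 to 0.16), and 67.0 and 98.6 CPM in KO, a ratio of -0.55 (-0.98 to -0.16). The signs differed between libraries, and without the shared barcodes the WT IP ratio was 0.33 (-0.04 to 0.69). Of the endothelial cells, 15 of 24 were GFP+, with 10 of 15 in WT IP and 0 of 4 in KO IP.

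Angpt1 was lower in GFP+ ASC of 3 libraries. In WT it was 29.9 CPM in GFP+ and 78.7 in GFP- ASC of SC, a log2 ratio of -1.38 (-2.08 to -0.74), and 21.8 and 49.4 CPM in IP, a ratio of -1.17 (-1.66 to -0.73). In KO it was 48.0 and 71.4 CPM in IP, a ratio of -0.56 (-1.08 to -0.10), and 22.9 and 23.1 CPM in SC, a ratio of -0.01 (-0.98 to 0.96). In WT it was lower in GFP+ cells within early ASC, at -1.31 in SC and -1.02 in IP, and within late ASC, at -1.04 and -1.13. The early SC value compares 13 GFP+ with 23 GFP- UMIs, and 1 GFP- cell held 15 of the 23. No direction is thus read from that value. Angpt1 in KO IP was -0.77 (-1.71 to -0.0061) within early ASC and -0.49 (-1.28 to 0.17) within late ASC. Among thinned ASC of KO IP, the mean share with an Angpt1 UMI was 11.3% of GFP+ and 12.3% of GFP- cells. At or beyond 2-fold was 1 of 4 members in WT SC (6.96% of all genes), 1 in KO SC, namely Angptl4 at -1.07 (5.82%), 1 in WT IP (3.62%) and 0 in KO IP (6.31%). The KO SC value of Angptl4 was -1.02 without the shared barcodes. Angptl2 in WT IP was 0.51 (0.28 to 0.74), and 0.07 (-0.26 to 0.39) without the shared barcodes.

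For early against late ASC within a library, 3 of 4 members were at or beyond 2-fold in WT SC (23.3% of all genes) and in KO SC (23.6%), and 1 of 4, Tek, in WT IP (10.8%) and in KO IP (8.37%). Angptl4 was lower in early ASC, with log2 ratios of -2.13 for WT and -2.52 for KO in SC, and -0.59 and -0.35 in IP. Angpt1 was lower by more than counting error in SC, at -1.71 and -1.87, and its IP values of -0.25 and -0.32 had intervals that held 0.

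Other genes of the pathway were taken from lists chosen for their roles. Ptprb, the phosphatase VE-PTP that restrains Tie2, was highest in endothelial cells at 417 CPM, as were Nos3 (endothelial nitric oxide synthase) at 158 CPM and Gpihbp1, which carries lipoprotein lipase to the vessel lumen, at 218 CPM. Svep1, a matrix protein that binds Tie1, was highest in ASC at 570 CPM, and so was Lpl, the lipase that ANGPTL4 inhibits, at 1250 CPM. In KO against WT, 0 of 9 compared genes of the Tie2 complex and its downstream path were at or beyond 2-fold in either depot (all genes 5.47% in SC and 5.88% in IP), with medians of -0.32 in SC and 0.18 in IP. By their intervals, 2 of the 9 lay above 0 and 3 below 0 in SC, and 3 above and 1 below in IP. Akt1, the kinase downstream of Tie2, was -0.60 (-0.98 to -0.22) in SC and -0.29 (-0.52 to -0.06) in IP. Foxo1, the transcription factor that this path restrains, was 0.27 (0.0084 to 0.54) and 0.27 (0.07 to 0.47), and Svep1 was -0.46 (-0.65 to -0.27) and 0.34 (0.27 to 0.41). Pik3r1 and Pik3ca, subunits of PI3 kinase, were 0.32 (0.01 to 0.63) and 0.28 (-0.04 to 0.61) in SC and 0.17 (-0.03 to 0.37) and 0.24 (0.03 to 0.45) in IP. Of 5 compared partners of ANGPTL2 and ANGPTL4, 0 were at or beyond 2-fold in either depot, beside the same 5.47% and 5.88%, with medians of -0.30 and -0.14. Lpl was -0.46 (-0.58 to -0.34) in SC and -0.25 (-0.30 to -0.21) in IP.

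Of 8 genes that share inducers with Angptl4, 0 were at or beyond 2-fold in KO against WT (5.47% and 5.88% of all genes), with medians of 0.03 in SC and 0.12 in IP. Plin2, the lipid droplet coat protein perilipin 2, was lower in KO in both depots, at -0.42 (-0.69 to -0.16) and -0.62 (-0.77 to -0.49). Vegfa, the vascular growth factor, was higher in both, at 0.85 (0.56 to 1.15) and 0.56 (0.22 to 0.91). Among 6 other angiopoietins and like genes, 2 could be compared in each depot. In SC, Angptl7 had 29 UMIs in KO against 4 in WT, and Angptl1 21 against 25, a ratio of -0.22 (-1.14 to 0.67). In IP, Angpt4 had 22 against 4 UMIs and Angptl1 105 against 55. In IP against SC, 1 of 9 genes of the Tie2 complex list was at or beyond 2-fold in each genotype (medians -0.30 in WT and 0.04 in KO), as were 1 and 2 of 5 partners (0.47 and 0.53) and 2 and 1 of 8 genes with shared inducers (0.14 and 0.08). Over all genes, 16.0% in WT and 16.7% in KO were at or beyond 2-fold, with medians of 0.07 and 0.09. Svep1 was 1.02 in WT and 1.81 in KO, Lpl 0.89 and 1.10, Itga5 (integrin alpha 5) 1.01 and 1.15, and Vegfa -1.89 and -2.17.

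The genes most like each member were taken by Pearson correlation of log2(CPM + 1) over 25 sums of a class in a library, among 12544 genes. This is a description, since sums share libraries and differ in depth. Tek went with Radil (0.95), Edn1, Ebf3, Meox2 and Tmod2, and Angptl2 with Gpx7 (0.96), Rhbdf1, Pdgfra, Ntf3 and Lims2. Angptl4 went with Cnpy2 (0.94), Clmp, Emilin1, Ift43 and Crtap. These 3 members were counted mainly in ASC, so their likeness may rest mainly on the ASC sums, and Pdgfra is itself an ASC marker. No sum of mural cells in a library had 10 cells, so mural Angpt1 took no part. Angpt1 went with Vegfc (0.88), Rasl12, Katnal1, Clip4 and Fhl2. For Tie1 (Sncg, Cytl1, Sox18, Emcn, Gja4) and Angpt2 (Nts, Mmrn1, Egfl7, Cldn5, Cytl1) the likeness rested on the WT IP endothelial sum, the only endothelial sum with at least 10 cells.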

How the data were processed

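The files held raw UMI counts that the authors produced with Cell Ranger, version 7.0.0 by the file header, and deposited per library. The submitters' processing notes name mm10 and STAR 2.6. Use of intronic reads is not given in the sources used here. Each table held 32290 features, 5 of them reporters. Barcodes under 200 genes or over 25% mitochondrial UMIs were dropped, as were 23 Scrublet doublets (0.556%). A cell was classed by its own marker UMIs, to the list it showed most fully, with at least 3 markers and the next list at most 0.75 as full. UMIs were summed per class and library. Log2 ratios added 0.5 UMI and carry exact conditional binomial intervals, levels Poisson and shares Clopper-Pearson intervals, all at 95%. With 1 library per group no test was run. All 6 genes were named, plus listed pathway genes and the 5 genes most alike in pattern. The ratio script was tested on simulated data. Members and lists were chosen with earlier results of these data known. Python 3.11.15 was used with scanpy 1.11.5, scipy 1.17.1, numpy 2.4.6 and pandas 2.3.3, and figures with matplotlib 3.10.9.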

Additional observations from a re-analysis of the deposited data

Results flagged for a closer look

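The KO against WT log2 ratio of Angpt1 in ASC was 1.97 higher in IP than in SC, because the gene was lower in KO in SC and higher in KO in IP. The difference between the depots was not tested, since each ratio compares 1 library with 1 other. Barcodes removed by the filters still held member UMIs, with 7 of Tek, 14 of Angptl2 and 34 of Angptl4 over the 4 libraries. In KO IP, 11 Tek UMIs were in T cells, 10.4% of the ASC level there, while the ASC markers in those T cells were 0.122% of their ASC level.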

How the results depend on the processing

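No paired analysis was possible because each group had 1 library. The limits are those of depth: Tert, Angpt2 in ASC and the receptors in endothelial cells had too few UMIs to compare groups. Leaving out each replicate could not be done with 1 library per group. Filters at 500 genes or 10% mitochondrial UMIs, doublets kept, 2 or 4 markers per class, 1 added UMI and median-of-ratios scaling changed no direction and moved no value beyond its counting interval. The same held for the cells of at least 2000 UMIs and for leaving the shared barcodes out of KO SC alone, both chosen after seeing the data, as were the early, late and other shared-barcode alternatives. Causes were not tested.

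Within early ASC, KO against WT gave log2 ratios of 0.41 for Angptl2 in SC and, in IP, -0.11 for Tek, 0.20 for Angptl2 and -0.39 for Angptl4. IP against SC gave -0.76 for Tek, 0.22 for Angpt1 and 1.75 for Angptl4 in WT, and 2.13 for Angpt1 and 2.16 for Angptl4 in KO. Within late ASC, KO against WT gave -0.35 for Angptl2 in SC. IP against SC gave -0.19 for Tek, -1.24 for Angpt1, -0.70 for Angptl2 and 0.21 for Angptl4 in WT, and 0.12 for Tek, 0.57 for Angpt1 and -0.0087 for Angptl4 in KO. GFP+ against GFP- in WT SC gave -0.16 for Tek and 0.072 for Angptl4.

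Thinning cells to 2000 UMIs left few UMIs, and 1 random draw differed from the mean over all draws, chosen after seeing the data, so no direction was read from a single draw. In that draw, KO against WT gave -0.32 for Angptl4 in SC and 0.037 for Tek, 0.42 for Angpt1 and -0.97 for Angptl4 in IP. IP against SC gave 0.53 for Angpt1 in WT and 0.49 for Angptl4 in KO. GFP+ against GFP- gave -0.059 for Angptl2 in WT IP and 0.13 for Angpt1 in KO IP. Thinned ASC shares were 77.5% for Angpt1, 90.0% for Angptl2 and 94.6% for Angptl4, and endothelial shares 100% for Tie1 and 25% for Angpt2. As a mean over all draws, Angpt1 in IP against SC was -0.31 (-1.35 to 0.93) in WT and 2.14 in KO, and Angptl4 in GFP+ against GFP- of WT SC was 0.13. Mean ASC shares were 91.3% for Tek, 79.9% for Angpt1, 89.8% for Angptl2 and 94.3% for Angptl4, and the mean endothelial share of Angpt2 was 35.5%. Angpt1 in KO against WT of SC had under 20 thinned UMIs and gave no value.

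With the mean of each cell's CPM, shared barcodes kept, Angptl4 was -0.053 in KO against WT of SC. IP against SC was -1.07 for Tek and 0.90 for Angptl4 in WT, and -0.53 and 0.39 in KO. With the next class at most 0.5 of the best share, Angptl4 was -0.34 and -0.53 in KO against WT of SC and IP, 1.32 in IP against SC of WT, and 0.16 in GFP+ against GFP- of WT SC. ASC shares were then 94.3% for Angpt1, 95.9% for Angptl2 and 97.4% for Angptl4, and the endothelial share of Tie1 100%. With classes from Leiden clusters, ASC shares were 98.2% for Tek and 97.2% for Angpt1, and the endothelial shares of Tie1 and Angpt2 were 0%, since no cluster took that class.

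When the shared barcodes were left out of both libraries, KO against WT in IP gave 0.34 for Angpt1 and -0.41 for Angptl4, and IP against SC in WT gave 0.0097 for Angpt1 and 0.88 for Angptl4. Shares were 94.1% for Angptl4 in ASC, and 100% for Tie1 and 36.3% for Angpt2 in endothelial cells. With at least 2 GFPcds UMIs against 0, Angptl4 in WT IP was -0.031. With at least 50 UMIs per gene, 2.50% and 3.43% of genes were at or beyond 2-fold in KO against WT of SC and IP.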
